A study of Mus musculus with 18 samples.

Results

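The heat shock proteins and DnaJ chaperones described here were the genes whose symbol in the deposited TPM table began with Hspa, Hspb, Hspd, Hspe, Hsph, Hsp90, Dnaja, Dnajb or Dnajc. After 3 pseudogenes were dropped from 73 matching symbols, 70 members remained of the 28252 genes of that table. They comprised 27 Hsp genes and 43 Dnaj genes. By protein family they held 3 HSP90 genes, 11 HSP70 genes, 3 HSP110 genes, 2 chaperonin genes, 5 small heat shock protein genes, 4 DNAJA genes, 11 DNAJB genes and 28 DNAJC genes. The 3 others, Hspb11, Hspbap1 and Hspbp1, carry the Hsp name without belonging to these families.

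RNA of mouse oocytes was sequenced at 3 stages, in primordial follicles, in primary follicles and at the arrest in metaphase II (MII). Each stage had a sham group and a group called NTY, with 3 libraries in each of the 6 groups. All mice were a C57Bl/6j x CBA/J cross and all samples were marked in vivo, whereas what NTY and sham consisted of, and the age of the mice, is not given in the sources used here. The labelled protocol describes laser microdissection, pooling of caps of the same stage, amplification and capture for 1 kind of sample and Smart-seq II for collected oocytes. The 12 follicle libraries are called microdissected here on that basis, and stage and method of library making cannot be told apart where they are set beside the 6 MII libraries. Nothing says that replicates came from separate mice, so p-values measure only the spread between these libraries, which may be technical.

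Molecular chaperones bind unfolded or partly folded proteins and help them to fold, assemble or be degraded. HSP70 proteins hold their clients in a cycle driven by ATP, in which DnaJ proteins deliver the client and start hydrolysis, and HSP110 proteins and other factors release the nucleotide. HSP90 proteins act later on kinases, receptors and other clients, chaperonins enclose a client in a chamber, and small heat shock proteins hold unfolded proteins without ATP. An oocyte stores the proteins and mRNA on which the early embryo depends, and the heat shock factor Hsf1 is known as a maternal factor in the mouse.

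Total counts were 15149564 to 29205503 in the microdissected libraries and 8652089 to 9978830 in the MII libraries. A floor of 3 counts stood at 0.103 to 0.198 CPM (counts per 1000000 counts) and at 0.301 to 0.347 CPM, which covers counting error only because amplified reads are not independent molecules. The summed level of 15 oocyte marker genes was 3.89 to 1986 TPM (median 572) in the microdissected libraries and 11244 to 18729 TPM in MII oocytes, and the lowest value belonged to primordial NTY replicate 3. Markers of granulosa cells (14 genes) summed to 381 to 3842 TPM and markers of stroma (6 genes) to 460 to 7486 TPM in the microdissected libraries, against 54.6 to 123 TPM and 0 to 1.29 TPM in MII oocytes. The microdissected libraries therefore held RNA of cells around the oocyte, and in bulk samples fewer cells of a type and less RNA per cell cannot be told apart. The codes of primary NTY replicates 2 and 3 were alike, and these were kept as separate samples.

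The members took 0.737 to 1.42% of all counts in the microdissected libraries (median 1.31%) and 0.655 to 0.911% in the MII libraries (median 0.71%). In TPM, which is scaled by gene length so that levels can be set beside each other between genes, they summed to 6375 to 14011 (median 10887) and to 3707 to 5789 (median 4966). The number of members with a TPM of at least 1 went the other way, with 23 to 47 of 70 in a microdissected library (median 33) and 44 to 56 in an MII library (median 50). The whole TPM table moved likewise, with 11.5 to 32% of its genes at a TPM of 1 or more in a microdissected library and 37.7 to 48.1% in an MII library.

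A TPM of 1 or more was reached in all 18 libraries by 9 members, Hsp90aa1, Hsp90ab1, Hsp90b1, Hspa5, Hspa8, Hspa9, Hspd1, Dnaja2 and Dnajc7. In all 6 MII libraries 38 members reached it. At the other end, Dnajc12, Dnajc22, Hspa12b, Hspb2, Hspb7 and Hspb8 stayed under a TPM of 1 in all 18 libraries, and Dnajc22, Hspb2 and Hspb7 never had more than 3 counts.

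**Figure D1:**
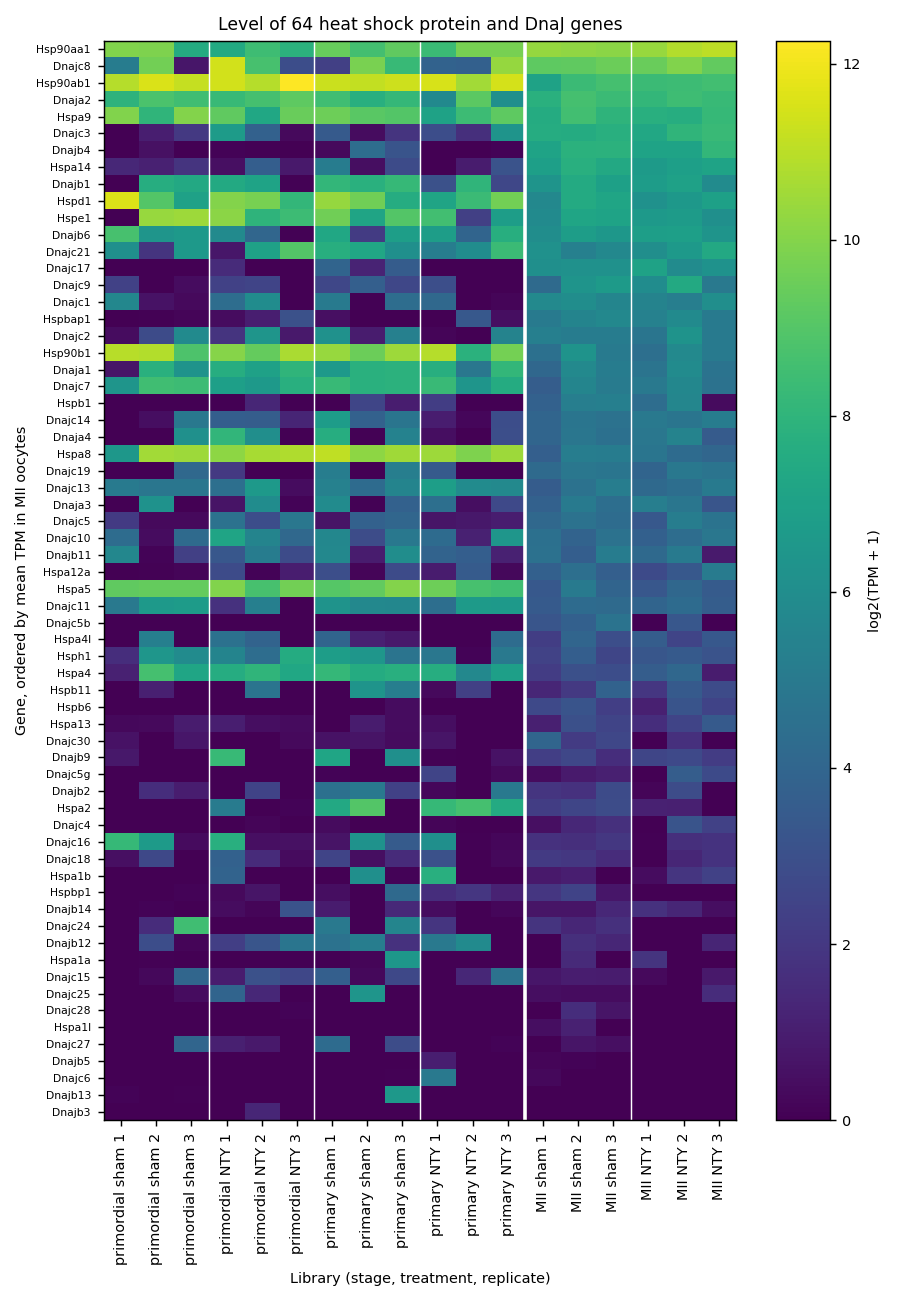
Level of the 64 members that reached a TPM of at least 1 in any library. Each row is a gene, ordered by its mean TPM in MII oocytes, each column a library, and the colour is log2(TPM + 1). Many rows switch between high and 0 across the 12 microdissected columns on the left, whereas Hsp90ab1, Hspa5 and Hspa9 are high in each. In the MII columns on the right no member falls from 1000 counts to 3 or fewer, although lower rows such as Hspb1, Dnajb11 and Dnajc30 vary there too.

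The stretches shown next are those in which promoters of members held the ER stress element, bound by factors of the unfolded protein response, because 2 of the 3 genes concerned are among the 5 members lower in every MII library and the third is among the 9 that are higher. Promoter sequence from RefSeq on GRCm38 matched 56 of the 70 members, and the 250 bases before each start were searched on both strands for CCAAT followed, after 9 bases of any kind, by CCACG. Capitals mark the match, and each sequence is read along the strand of its gene. The stretch of Hspa5 also falls in the first exon of a transcript that starts further upstream in GENCODE, and those of Dnajc3 and Hsp90b1 lie outside annotated genes.
Dnajc3, chr14:118937822-118937851, plus strand: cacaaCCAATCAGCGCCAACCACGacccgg
Hsp90b1, chr10:86705632-86705661, minus strand: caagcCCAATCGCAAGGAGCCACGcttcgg
Hspa5, chr2:34772020-34772049, plus strand: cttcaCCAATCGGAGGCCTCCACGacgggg
This motif was found in 3 of the 56 members with a promoter (5.36%) and in 0.13% of 27025 genes with a promoter. Because it is shown for where its genes lay in these data, the shares are no test. A match describes letters and does not show binding.

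The heat shock element, on which heat shock factors assemble as units of GAA in alternating direction, was searched in its form with 3 units, GAA, TTC and GAA, with 2 bases of any kind between neighbours. It was found in 0.514% of genes and in 3 of the 56 members with a promoter (5.36%), Hspd1, Hspe1 and Dnajb6. The shorter form with 2 units, GAA and TTC, was found in 10 members (17.9%, against 7.73% of genes), among them Hspa1a, Hspa1b, Hspb1 and Dnaja1. In the order TTC and GAA it was found in 6 members (10.7%, against 8.11% of genes), among them Hsph1 and Dnajb4. Hspd1 and Hspe1 encode the mitochondrial chaperonin and its lid and are transcribed away from each other out of a shared stretch of chromosome 1, so their windows hold the same bases read from opposite strands. There 2 matches of the form with 3 units overlap, and the capitals mark both as 1 longer run. That stretch also lies in an exon of a longer Hspd1 transcript.
Hspd1, chr1:55088055-55088084, minus strand: gcggggccTTCCGGAAGGTTCTAGAAcgga
Hspe1, chr1:55088051-55088080, plus strand: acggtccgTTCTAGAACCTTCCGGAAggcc
Dnajb6, chr5:29735844-29735873, plus strand: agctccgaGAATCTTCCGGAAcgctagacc
The stretch of Dnajb6 overlaps exons of a Dnajb6 transcript and of Gm5129.

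Among the HSP90 genes, Hsp90aa1 and Hsp90ab1 encode the cytosolic proteins, the first known as the form induced by stress and the second as the constant form. Hsp90aa1 had the highest mean TPM of any member in MII oocytes. Its TPM was 1285, 1189 and 1124 in sham and 1339, 1857 and 2123 in NTY, against 176 to 996 (median 498) in the microdissected libraries. Hsp90ab1 had 133, 331 and 402 TPM in MII sham and 331, 338 and 374 in MII NTY, against 1488 to 4911 (median 2519) in the microdissected libraries, where it was the highest member by median. All 6 MII libraries lay above the 12 others for Hsp90aa1 and below them for Hsp90ab1.

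The ratio of Hsp90aa1 to Hsp90ab1, in TPM within a library, does not depend on how libraries are scaled. It was 0.0474 to 0.58 (median 0.212) in the microdissected libraries and 2.79 to 9.63 (median 4.77) in MII oocytes, so that Hsp90aa1 exceeded Hsp90ab1 in 6 of 6 MII libraries and in 0 of 12 others. In MII oocytes the ratio was 9.63, 3.59 and 2.79 in sham and 4.05, 5.49 and 5.68 in NTY. The mean log2 ratio was 2.33 ± 0.27 (SD, n = 3) in NTY and 2.20 ± 0.94 (SD, n = 3) in sham, a difference of 0.13 with p = 0.9 in a two-sided exact permutation test, whose smallest possible p is 0.1. That difference turned to -0.048 without MII sham replicate 2 and to -0.23 without MII sham replicate 3. Of the 50-base stretches of the Hsp90aa1 transcripts, 58.5% also occur in other genes, so its level is uncertain. Its pseudogene Gm12346 held 0.309 to 0.717% as many counts in MII oocytes and 0 to 6.23% in the microdissected libraries, which does not show how many shared reads were dropped.

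**Figure D2:**
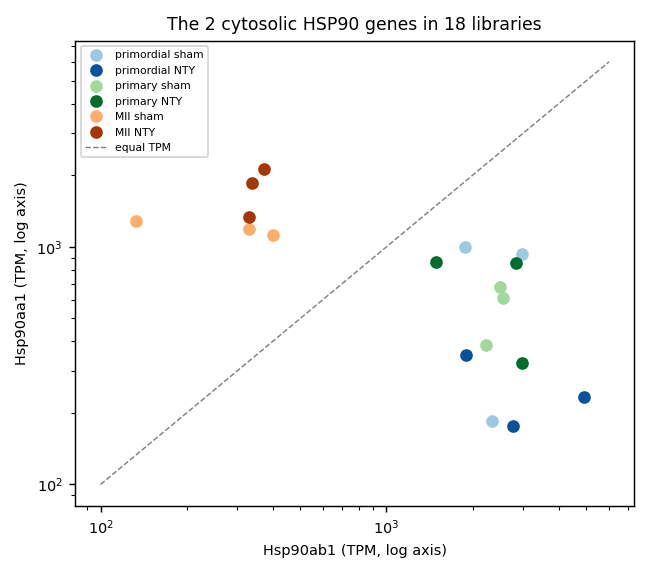
Hsp90aa1 (vertical) against Hsp90ab1 (horizontal) in TPM, both on log axes, with a point for each of the 18 libraries and a dashed line where both are equal. The 6 MII libraries lie above the line at the left and the 12 microdissected libraries below it at the right.

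Over all members, 58 of 70 reached a TPM of 1 in 3 or more libraries and could be placed. Of these, 9 had all MII libraries above all microdissected libraries (15.5%, against 23.3% of 14965 genes), and 5 had them all below (8.62%, against 2.83%). The 9 were Hsp90aa1, Hspa13, Hspa14, Hspb6, Hspbap1, Dnajb4, Dnajc3, Dnajc9 and Dnajc17. The 5 were Hsp90ab1, Hsp90b1, Hspa5, Hspa8 and Dnajc7. Scaling by total counts gave the same genes. A gene could lie below only where no microdissected library fell to its MII level. All 5 were among the 17 members with 1000 counts in some microdissected library and never 3 or fewer. Of members that reached 1000 counts there, 61.4% fell to 3 or fewer in another, against 77% of genes. What this adds to the shares above was not tested. No test was made between the sets, and the library method differs between them. The markers of granulosa cells and stroma given above were lower in MII oocytes, as were the 5 members. Markers of endothelium (4 genes, sum 0.0225 to 566 TPM, median 2.55, in the microdissected libraries and 44.7 to 80.7, median 61.6, in MII oocytes) and of immune cells (4 genes, 0 to 21.5, median 0.269, and 8.20 to 32.5, median 19.2) had higher medians in MII oocytes, where Cdh5, Ptprc and Adgre1 were at 0. Markers of smooth muscle (4 genes) summed to 0.849 to 4696 TPM (median 87.4) in the microdissected libraries and 5.01 to 20.8 (median 15.2) in MII oocytes. The medians were 0.837 and 7.84 TPM for markers of theca (5 genes), and 0.182 and 0 for those of blood (4 genes). The part of these markers in the differences was not tested.

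Hspa8, the constant cytosolic HSP70 protein, had the largest ratio of medians of the 5. Its TPM was 12.1, 35.8 and 34.4 in MII sham and 26.1, 18.3 and 15.8 in MII NTY, against 89.9 to 2143 (median 1432) in the microdissected libraries. The ratio of the medians was 64.4. Reads of Hspa8 are uncertain, because 51.4% of its 50-base stretches occur in 13 other genes and the pseudogene Gm15459 alone held 14.7 to 35.4% as many counts in MII oocytes.

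Of the chaperones of the endoplasmic reticulum, Hspa5 (the HSP70 protein BiP) had 9.40, 31.4 and 14.6 TPM in MII sham and 9.13, 16.3 and 10.4 in MII NTY, against 356 to 1020 (median 650) elsewhere. Hsp90b1, the HSP90 protein of the same compartment, had 22.0, 78.7 and 31.0 TPM in MII sham and 21.0, 54.3 and 32.5 in MII NTY, against 229 to 1948 (median 1171). The ratios of medians were 51.9 for Hspa5 and 36.8 for Hsp90b1, and in both genes the highest MII library lay below the lowest of the others. Dnajc3, a DnaJ partner of BiP that also restrains the kinase PERK, went the other way. Its TPM was 190, 188 and 209 in MII sham and 161, 259 and 321 in MII NTY, against 0 to 104 (median 2.87).

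Of the other members higher in every MII library, 5 are given here. Dnajb4, a cytosolic DnaJ protein, had 137 to 276 TPM in MII oocytes and 0 to 19.6 elsewhere. Dnajc17, a nuclear DnaJ protein, had 60.1 to 132 TPM against 0 to 14.3, and Hspbap1 had 32.0 to 56.6 against 0 to 9.30. Hspa14, a cytosolic HSP70 protein found on ribosomes, had 103 to 212 TPM against 0 to 34.5, but its reads are uncertain, because the overlapping gene Gm45902 held 241 to 673 counts in MII oocytes (16.9 to 22.2% as many as Hspa14) and 0 to 724 counts in the microdissected libraries, where Hspa14 itself had 0 to 967. Dnajc9, a histone chaperone, had 18 to 176 TPM against 0 to 12.3.

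**Figure D3:**
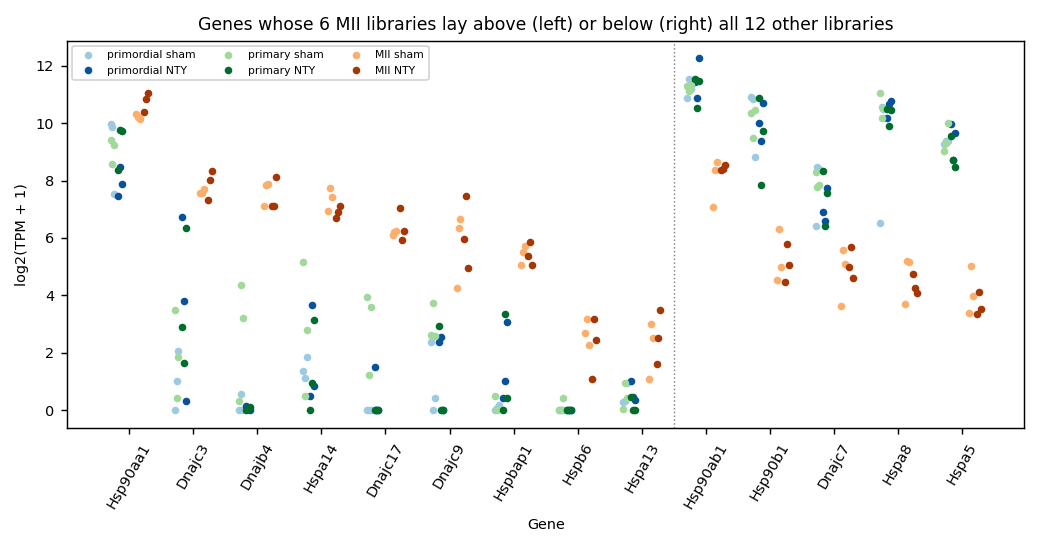
The 14 members whose 6 MII libraries (orange and brown) lay all above, left of the dotted line, or all below, right of it, the 12 microdissected libraries (blue and green). The vertical axis is log2(TPM + 1) and each point is a library. The gap between the sets is smallest for Hspa13.

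Other members were high in both sets. Dnaja2, a cytosolic DnaJ protein, had 222 to 394 TPM (median 318) in MII oocytes and 55.6 to 592 TPM (median 331) elsewhere. Hspa9, the HSP70 protein of mitochondria, had 186 to 374 TPM and 134 to 1011 TPM. Dnajc8, associated with splicing, was the member with the second highest mean in MII oocytes at 706 TPM (range 590 to 971), but it ranged from 0.669 to 2779 TPM in the microdissected libraries. The sum of Hspa9, Hspd1 and Hspe1 was 294 to 701 TPM in MII oocytes and 653 to 4144 TPM elsewhere.

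That swing was common to the microdissected libraries. Of 44 members with at least 1000 counts in some microdissected library, 27 (61.4%) had 3 counts or fewer in another, against 77% of all genes that reached 1000 counts. In MII oocytes it was 0 of 18 members, against 0.0394% of genes. Hspe1 was among the 27, whereas its partner Hspd1 had at least 1000 counts in all 12 microdissected libraries. Hspd1 had 3175 TPM and Hspe1 had 0 in primordial sham replicate 1, whereas in primordial sham replicate 3 the values were 130 and 1401. Their ratio ran from 0 to 10.8 in the microdissected libraries and from 0.541 to 1.31 in MII oocytes. The dispersion that edgeR fitted in common to all genes, which is the square of the relative spread among replicates, was 3.59 in the microdissected fit and 0.542 in the MII fit.

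The HSP70 genes induced by stress, Hspa1a and Hspa1b, were at or near 0 counts in most microdissected libraries and high in single ones. Hspa1a had 2150 counts in primary sham replicate 3 and 0 to 3 in the 11 others. Hspa1b had 4682 counts in primary NTY replicate 1, 1444 in primary sham replicate 2, 262 in primordial NTY replicate 1 and 0 to 2 in the others. In MII oocytes Hspa1a had 0 to 26 counts and Hspa1b 0 to 39. The genes are near-identical copies on chromosome 17, with 60.3% and 62.3% of their 50-base stretches shared, so reads may have been divided between them.

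NTY was compared with sham at each stage to ask what the treatment changed, using the quasi-likelihood test of edgeR with Benjamini-Hochberg adjustment over all genes tested. In MII oocytes 50 members passed the filter on low counts, and 0 had an adjusted p under 0.05, as did 0% of 12209 genes. At an unadjusted p under 0.05 there were also 0 members, against 2.29% of genes, and DESeq2 called 0 members, against 0.238% of genes. That 0 at an unadjusted p became 4, 5 and 6 members without NTY replicate 1, 2 and 3, 2, 1 and 1 without sham replicate 1, 2 and 3, 5 without the filter and 4 in limma on TPM, while no member had an adjusted p under 0.05 in any of these. Over all genes the number at an unadjusted p under 0.05 rose too, from 280. It was 1068, 740 and 968 without NTY replicate 1, 2 and 3, and 355, 285 and 316 without sham replicate 1, 2 and 3. Without the filter it was 1154, and in limma on TPM 587. The fold change was above 0 for 27 members and below 0 for 23, with a median log2 fold change of 0.05 against 0.00 over all genes.

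Hsp90aa1, whose TPM values are given above, had a log2 fold change of 0.57 ± 0.31 (SE) with an adjusted p of 1.00 in edgeR. Its groups did not overlap in TPM, where NTY was higher for 2 of 50 members (Hsp90aa1 and Dnajc14), against 2.04% of genes, but they did overlap in TMM-scaled CPM. In TMM-scaled CPM the groups were apart for 4 members, against 8.35% of genes. They were Dnajc14, higher in NTY, and Dnajc30, Dnajc5b and Hspa2, lower in NTY. In TPM itself, NTY was lower without overlap for 2 of 50 members (Dnajc30 and Hspa2), against 5.52% of genes. Hspa2, the HSP70 protein best known from meiotic male germ cells, had 42, 45 and 53 counts in sham and 11, 10 and 0 in NTY, a log2 fold change of -2.68 ± 1.47 (SE) with an adjusted p of 1.00 in edgeR. Dnajc30 had 107, 20 and 28 counts in sham and 0, 13 and 0 in NTY.

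Beside these low counts stands a difference between the libraries. In MII oocytes the genes with at least 1 count numbered 15442 to 18239 in sham and 12782 to 13608 in NTY, and the members with at least 1 count 57 to 62 and 48 to 51. Dnajc24 had 15, 7 and 10 counts in sham and 0 in each NTY library, and Hspbp1 had 23, 30 and 4 counts in sham and 0 in each NTY library. Both were under the filter and were singled out after their values were seen. The part of the difference in genes detected was not tested.

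For the other main chaperones in MII oocytes the fold changes were near the size of their standard errors or smaller. On the log2 scale Hsp90ab1 stood at 0.37 ± 0.33 (SE), Hsph1 at 0.43 ± 0.47, Hspa5 at -0.54 ± 0.49, Hspa8 at -0.35 ± 0.43, Hspe1 at -0.27 ± 0.36, Hspb1 at -0.36 ± 1.16 and Dnajb1, the DnaJ partner of cytosolic HSP70 proteins that heat induces, at -0.34 ± 0.32. Hspa9, Hspd1 and Hsp90b1 stood at -0.11 ± 0.31, -0.21 ± 0.41 and -0.20 ± 0.48. The last 3 and Hspb1 changed sign when 1 library was left out. Under the same change Hsp90aa1 ranged from 0.31 to 0.81, Hsp90ab1 from 0.11 to 0.65, Hsph1 from 0.21 to 0.83, Hspa5 from -0.76 to -0.095, Hspa8 from -0.63 to -0.18, Hspe1 from -0.51 to -0.15 and Dnajb1 from -0.49 to -0.14. All had an adjusted p of 1.00 in edgeR, and Hspa1a and Hspa1b did not pass the filter.

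**Figure D4:**
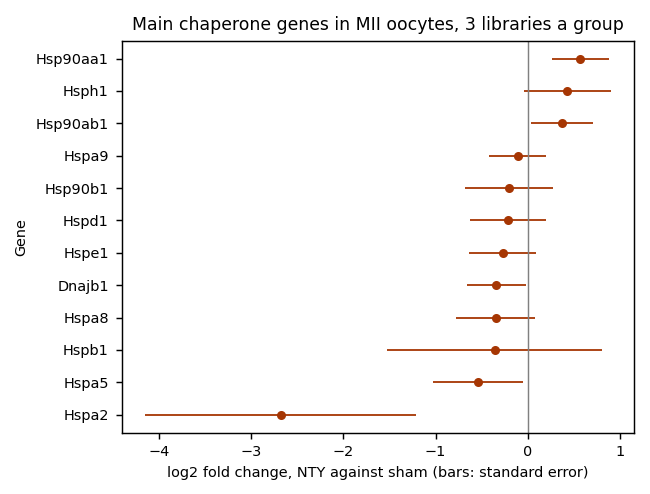
Log2 fold change of NTY against sham in MII oocytes with its standard error, for the 12 main chaperone genes that passed the filter, 3 libraries a group. The values run from -2.68 for Hspa2 to 0.57 for Hsp90aa1, and none had an adjusted p under 0.05.

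At the primordial stage edgeR called 0 of 52 members tested at an adjusted p under 0.05, and 0.0095% of 10522 genes. An unadjusted p under 0.05 was reached by 4 members, against 10.9% of genes. They were Hspa2, Hspa1b and Dnajb9 with positive and Dnajc24 with negative fold changes. Hspa2 had 0 counts in each sham library and 597, 0 and 2 in NTY. Dnajc24, known from the making of diphthamide, had 0, 23 and 3160 counts in sham and 0 in each NTY library. Dnajb9, a DnaJ protein of the endoplasmic reticulum, had 9, 0 and 0 counts in sham and 5242, 0 and 0 in NTY. Each of these rests mainly on a single library. DESeq2 called Hspa2 and Dnajc24, 2 of 52 members, against 7.22% of genes. The groups were apart in TMM-scaled CPM for 4 members (Hspbap1, Dnajb6, Dnajc5 and Dnajc10), against 8.4% of genes. The oocyte marker sum was 362 to 1986 TPM (median 591) in primordial sham and 3.89 to 656 TPM (median 165) in primordial NTY. The granulosa marker sum was 381 to 2269 TPM (median 601) in primordial sham and 1810 to 3842 TPM (median 3451) in primordial NTY. Endothelium markers summed to 21.2 to 566 TPM in primordial sham and 0.222 to 5.07 TPM in primordial NTY, without overlap. Theca markers went the other way without overlap, at 0 to 0.167 and 0.540 to 2.81 TPM. The other marker lists overlapped. The part of these differences in the result was not tested.

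At the primary stage edgeR called 0 of 52 members and 0% of genes. An unadjusted p under 0.05 was reached by 3 members, against 8.15% of genes, all lower in NTY. Beside these stands a difference in detection, since genes with at least 1 count numbered 10565 to 13755 in the primary sham libraries and 7474 to 10255 in the primary NTY libraries, without overlap, and its part in the result was not tested. Dnajc17 had 129, 13 and 115 counts in sham and 0 in each NTY library, so its mean CPM was at least 28.1-fold higher in sham than the level of 3 counts per NTY library (log2 fold change -9.0 ± 3.39 (SE), adjusted p = 0.5 in edgeR). Dnajb4 had 15, 1298 and 580 counts in sham and 0, 2 and 5 in NTY (log2 fold change -7.80 ± 3.79 (SE), adjusted p = 0.595 in edgeR). In both genes the sham libraries all lay above the NTY libraries. Dnajc25 had 1, 2809 and 1 counts in sham and 0 in each NTY library, so that its log2 fold change of -12.91 ± 4.81 (SE), with an adjusted p of 0.5 in edgeR, rested on sham replicate 2 and stood at -2.78 without it.

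DESeq2 called Dnajb4 (adjusted p = 0.0161), 1 of 52 members, against 4.61% of genes, and gave Dnajc17 an adjusted p of 0.111. The groups did not overlap for 5 members (Dnajc25, Dnajc17, Dnajb4, Dnajc14 and Dnajc13), against 13.9% of genes. Dnajb4 and Dnajc17 were also among the members found high in every MII library. The oocyte marker sum was 543 to 1107 TPM in primary sham and 286 to 1089 TPM in primary NTY. Theca markers summed to 1.31 to 43.1 TPM in primary sham and 0.404 to 0.890 TPM in primary NTY, without overlap. Immune markers went the other way without overlap, at 0 to 0.198 and 0.200 to 21.5 TPM. The other lists overlapped, among them smooth muscle at 118 to 378 TPM (median 221) and 2.23 to 4696 TPM (median 2995). The part of these markers in the result was not tested.

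**Figure D5:**
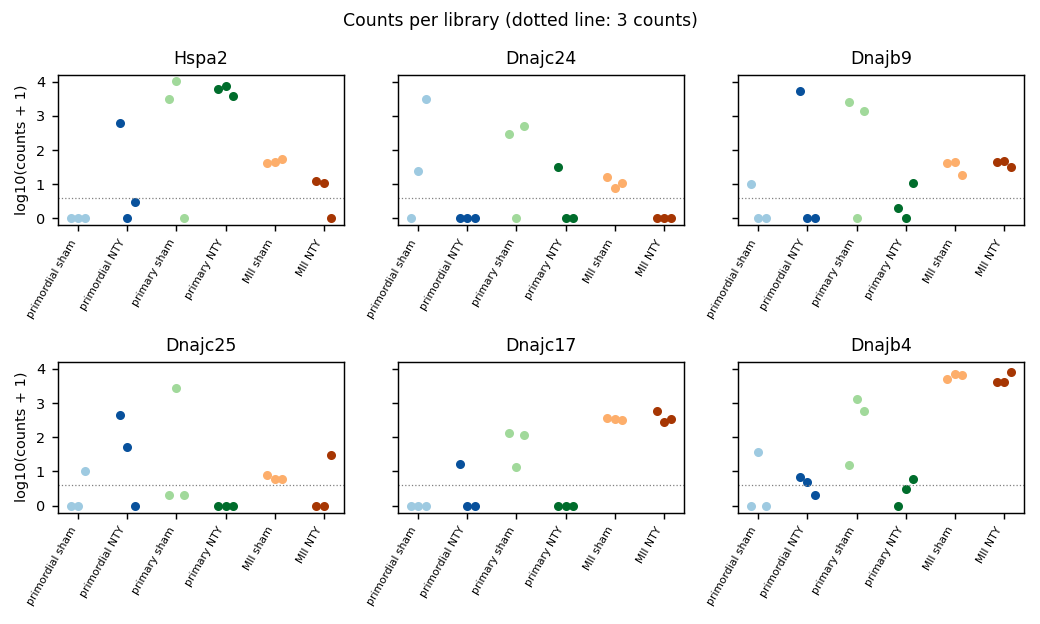
Counts of 6 members in each library as log10(counts + 1), by group, with a dotted line at 3 counts. Dnajc17 and Dnajb4 lie above 3 counts in all primary sham libraries, while Dnajc25 and Dnajc24 pass 1000 counts in 1 microdissected library each, Dnajb9 in 3 and Hspa2 in 5 of 6 primary libraries.

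Primary were compared with primordial follicles in each treatment, with the same sham and NTY libraries as above, so these comparisons share samples. In sham 0 of 52 members had an adjusted p under 0.05 in edgeR, where 0.0095% of genes did. An unadjusted p under 0.05 was reached by 5 members, Hspa2, Dnajc17, Hspa1b, Hspb1 and Hspbp1, all higher in primary follicles, against 9.28% of genes. In the same direction, genes with at least 1 count numbered 6147 to 9852 in primordial sham and 10565 to 13755 in primary sham, and the part of this in the result was not tested. Groups were apart for 3 members (Dnajc17, Hspa12a and Dnajb2), against 14.2% of genes. Dnajc17 had 0 counts in each primordial sham library, and its level in primary sham was at least 18.3-fold higher than that of 3 counts (log2 fold change 9.0 ± 3.40 (SE), adjusted p = 0.473 in edgeR). In NTY 0 of 52 members and 0% of genes were called by edgeR. There, 2 members (Dnajc25 and Dnajb9), against 9.97% of genes, had an unadjusted p under 0.05. Groups were apart for 4 members (Hspa2, Dnajc5, Hspbp1 and Hsp90aa1), against 7.84% of genes.

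Hspa2 had the lowest unadjusted p of the members between the stages in sham. Its counts at the primary stage were 3104, 10215 and 0 in sham and 6125, 7635 and 3823 in NTY, against the counts of 0 to 597 at the primordial stage given above. In 5 of 6 primary libraries it thus lay above every primordial library, and in the remaining one it was at 0. In sham its mean CPM at the primary stage, which rested on replicates 1 and 2, was at least 980-fold the level of 3 counts in a primordial library. It had 0 counts in each primordial sham library, and the comparison gave an adjusted p of 0.473 in edgeR. Of members that reached 1000 counts in some microdissected library, 61.4% had 3 or fewer in another. The fold over 3 counts therefore does not bound the difference between the stages. In NTY the log2 fold change of primary against primordial follicles was 5.02 ± 2.92 (SE) with an adjusted p of 0.59 in edgeR. DESeq2 called Hspa2 in sham, 1 of 52 members, against 5% of genes, and not in NTY, where its 2 calls were Dnajc24 and Dnajc5, against 6.71% of genes. Its level in MII oocytes was 0 to 6.15 TPM.

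The difference of the NTY effect between primary and primordial follicles was called for 0 of 52 members in edgeR, where 0.0095% of genes were. An unadjusted p under 0.05 was reached by Dnajc17, Dnajc25, Dnajb9 and Hspa2, 4 members, against 11.8% of genes, with adjusted p-values of 0.161, 0.17, 0.209 and 0.292 in edgeR. All 4 had a lower fold change in primary follicles, but for Hspa2 the sign turned in voom (1.41) and in limma on TPM (0.90). Much of this rested on primordial NTY replicate 1, without which the difference was -2.85 for Dnajb9 (from -16.67), -2.88 for Hspa2 (from -10.03) and -9.01 for Dnajc17 (from -14.51), with adjusted p-values of 1.00, 0.854 and 1.00 in edgeR. Without primary sham replicate 2 that of Dnajc25 was -8.36 (from -18.48). DESeq2 called 5 members (Dnajc17, Dnajb9, Hspa2, Dnajc24 and Dnajc5), against 7.15% of genes.

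Of the other genes of the pathway, a list of 50 co-chaperones, heat shock factors, TRiC subunits and prefoldin subunits was measured in the same way, and all 50 were found. In the microdissected fit 47 were tested and in the MII fit 41, and edgeR called 0 of them in each of the 6 comparisons. For NTY against sham DESeq2 called 2 (Ahsa2 and Vbp1) in primordial follicles, against 7.22% of genes, 1 (Hsf2) in primary follicles, against 4.61%, and 0 in MII oocytes, against 0.238%. The highest in MII oocytes by mean TPM were Pfdn4, a prefoldin subunit, at 767 (range 262 to 1505), Hsbp1, which binds heat shock factor, at 311 (range 212 to 396), and Cct8, a TRiC subunit, at 286 (range 168 to 463). In the microdissected libraries the same genes ranged from 0 to 8.92, from 0 to 14.7 and from 0.0453 to 458 TPM. These genes were picked as the highest in MII oocytes, and others of the list were lower there. Serpinh1 had 0 TPM in MII oocytes against 27.1 to 1686 elsewhere, Cct2 4.91 to 53.3 against 59.8 to 1107, and Cct3 8.58 to 27.7 against 58.6 to 491. The latter genes were chosen after their values were seen.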

How the data were processed

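The authors deposited a table of raw read counts for 53715 genes, in whole numbers, and a table of TPM for 28252 of them, each TPM column summing to 1000000. The submitters' processing notes name Trim Galore 0.4.1, TopHat2, featureCounts and mm10. Reads shared by near-identical genes could have been split or dropped, so the share of 50-base stretches found in other genes was computed from GENCODE M21 transcripts. Members, lists and tests were chosen with earlier results of these data known.

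Counts were tested with edgeR 4.0.16 in R 4.3.3 (TMM, filterByExpr, robust quasi-likelihood), the 12 microdissected libraries together and the 6 MII libraries alone. The threshold was an adjusted p of 0.05. The standard error is the log2 fold change divided by the root of F. A fold change fitted against a group at 0 counts depends on the prior count and is no bound. A fold over the level of 3 counts covers counting error only and does not bound the difference between groups. Alternatives were RLE normalization, DESeq2 1.42.0 (7 members had no adjusted p in the microdissected fit), voom with sample quality weights, limma 3.58.1 on log2(TPM + 1), no filter on low counts, a replicate block, primary NTY replicates 2 and 3 summed, and each library left out. The scripts were also run on simulated data. Its dispersions lay below the 3.59 of the microdissected fit, so it does not show what could be detected there. Every pair of replicates differed by more than sampling noise (lowest chi-square over its degrees of freedom 38.0).

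Levels were given for any member. In MII oocytes fold changes were given for the 14 main members, except Hspa1a and Hspa1b, which did not pass the filter. In the other comparisons they were given for up to 4 members per direction with an unadjusted p under 0.05 and no overlap. Values named outside this rule (Dnajc30, Hspa2, Dnajc24 and Hspbp1) were chosen after they were seen.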

Additional observations from a re-analysis of the deposited data

How the results depend on the processing

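The number of members called by edgeR was 0 in all 6 comparisons and stayed 0 with RLE normalization, voom, limma on TPM, no filter, the replicate block and each library left out. DESeq2 called 2, 1, 0, 1, 2 and 5 members (NTY in primordial, primary and MII oocytes, primary against primordial follicles in sham and in NTY, and the difference of effects), 2, 1, 0, 2, 3 and 3 co-chaperones, and 760, 485, 29, 526, 706 and 752 of all genes, where edgeR called 1, 0, 0, 1, 0 and 1. In the same order without the MII comparison, voom called 0 (801 at an unadjusted p under 0.05), 58, 104, 2 and 6 genes, and 1 co-chaperone in primary follicles. Limma on TPM called 2, 3, 3 and 1 genes in the first 4 of these, and RLE 2 in primordial follicles. Without the filter the stage comparison in sham gave 0 genes (1742 at an unadjusted p under 0.05) and the difference of effects 11. Summing primary NTY replicates 2 and 3 gave 0 genes (1310 at an unadjusted p under 0.05) for that difference. With a library left out, edgeR called 0 to 3 genes for NTY in primordial follicles, 0 to 2 for the stage comparison in sham and 0 to 8 for the difference of effects. The cause was not tested.

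The sign turned for the Hspa2 difference of effects in voom (1.41) and limma on TPM (0.90). In MII oocytes, with a library left out, it also turned for Hspa9 (-0.40 to 0.060, positive without sham replicate 2 at 0.047 and NTY replicate 2), Hsp90b1 (-0.50 to 0.34, positive without sham replicate 2 and NTY replicate 1 at 0.054), Hspd1 (-0.56 to 0.013, positive without sham replicate 2) and Hspb1 (-1.41 to 0.22, positive without NTY replicate 3). The log2 ratio of Hsp90aa1 to Hsp90ab1 ranged from -0.23 to 0.66 with a library left out. Correlations between libraries paired by equal replicate number were -0.08 to 0.083. With 3 libraries a group and this spread, they cannot decide whether the libraries were paired. The replicate block gave 0 members called in each comparison. The spread between microdissected replicates (dispersion 3.59) limits what could be detected there.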
